A study of Mus musculus with 7 samples.

Results

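The genes described here encode 9 proteins of the B-cell surface that are stained to tell B-lineage stages apart: Ptprc (CD45, of which B220 is the B-cell form), Spn (CD43), Cd24a (CD24), Ly6d, Cd93, Enpep (BP-1), Cd22, Cd72 and Ms4a1 (CD20). Their chromatin was followed through the ATAC-seq peaks that overlapped each gene body extended by 10 kb on each side. Overlapping peaks of the 7 libraries were merged into 145247 regions, and 90 of them, holding 487 of 647973 peaks, lay at these genes. Ptprc had 25 regions, Enpep and Cd22 had 13 each, Cd93 had 9, Cd24a had 8, Ms4a1 had 7, and Ly6d, Spn and Cd72 had 5 each.

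B-cell progenitors were sorted from mouse bone marrow as pre-proB, proB or preB cells, and each of the 7 groups was 1 library. WT cells were Ergfl/fl, with floxed Erg and no Cre, and gave all 3 stages. Erg KO pre-proB cells were Rag1CreT/+;Ergdelta/delta, in which Cre driven from Rag1 removes the transcription factor Erg from the common lymphoid progenitor onwards. Rescue cells were Rag1CreT/+;Ergdelta/delta;IgHVH10tar, carrying in addition a heavy chain gene that is already productively rearranged, and were labelled with the same 3 stages as WT. No group carried Cre with intact Erg. Per the study's methods the mice were adults of both sexes bred on a C57BL/6J background, and how many were pooled in a library is not stated in the labels or methods. Peak lists do not show whether the floxed Erg exon was removed, so deletion was not checked here.

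Groups followed the sample titles, but the source names of all 3 Rescue libraries gave another stage: proB for the library titled pre-proB, preB for proB and pre-proB for preB. At the promoter of Pax5, which encodes a factor of B-cell commitment, the library titled Rescue pre-proB had no peak, and those titled Rescue proB and Rescue preB had folds of 29.8 and 45.8, beside 3.68, 28.1 and 40.3 in the 3 WT stages. The titles were used throughout, and a regrouping by source name is given among the alternatives.

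Early B-lineage cells are staged by which of these proteins they carry. CD43 marks early progenitors and declines at the preB stage, CD24 and BP-1 rise as cells commit, CD93 marks immature B cells, Ly6D splits lymphoid progenitors into those biased to the B lineage and those not, and CD22, CD72 and CD20 act at the B-cell receptor of later cells. An ATAC-seq peak marks DNA that is open to an enzyme, usually a promoter or an enhancer, and an open region does not by itself report transcription.

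The sort of these stages used B220, CD43 and CD24, so 3 of the 9 genes encode a gate marker: all stages were B220+, CD43 was lost between proB and preB, and CD24 was gained between pre-proB and proB. Differences between stages at Spn and Cd24a are therefore not independent of the gate. The sort also excluded cells carrying NK1.1 or CD11c. In the 3 pre-proB libraries the promoters of Klrb1c (NK1.1) and Itgax (CD11c) had folds of 35.2 to 49.7 and 28.5 to 31.6.

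Height is given as fold, the deposited ratio of the summit pileup to the genome-wide background pileup of its library. Background pileups were 3.49 to 4.6, the lists held 76465 to 105649 peaks, and the lowest called folds were 2.32 to 2.63, so a region without a peak is bounded by that level and not shown to be closed. The median fold over regions with a peak in all 7 libraries differed from that of WT pre-proB by -0.15 to 0.15 on the log2 scale, and height ratios are to be read against that shift. With 1 library per group no test between groups was possible. Ratios of 2 libraries below are of summit pileup over background, with exact 95% intervals, and shares carry Wilson 95% intervals. All cover counting error alone, and differences between mice or sorts cannot be separated from those between groups.

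All 9 genes had a peak within 1000 bp of an annotated transcription start site (TSS) in WT proB and WT preB. The count was 8 for WT pre-proB and for each Rescue library, and 7 for Erg KO pre-proB. Enpep was the gene without a promoter peak in all 5 of those libraries, and Ms4a1 was the other in Erg KO pre-proB. For comparison, 61.7% to 65.7% of 21924 protein-coding genes had a promoter peak in a library.

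**Figure D1:**
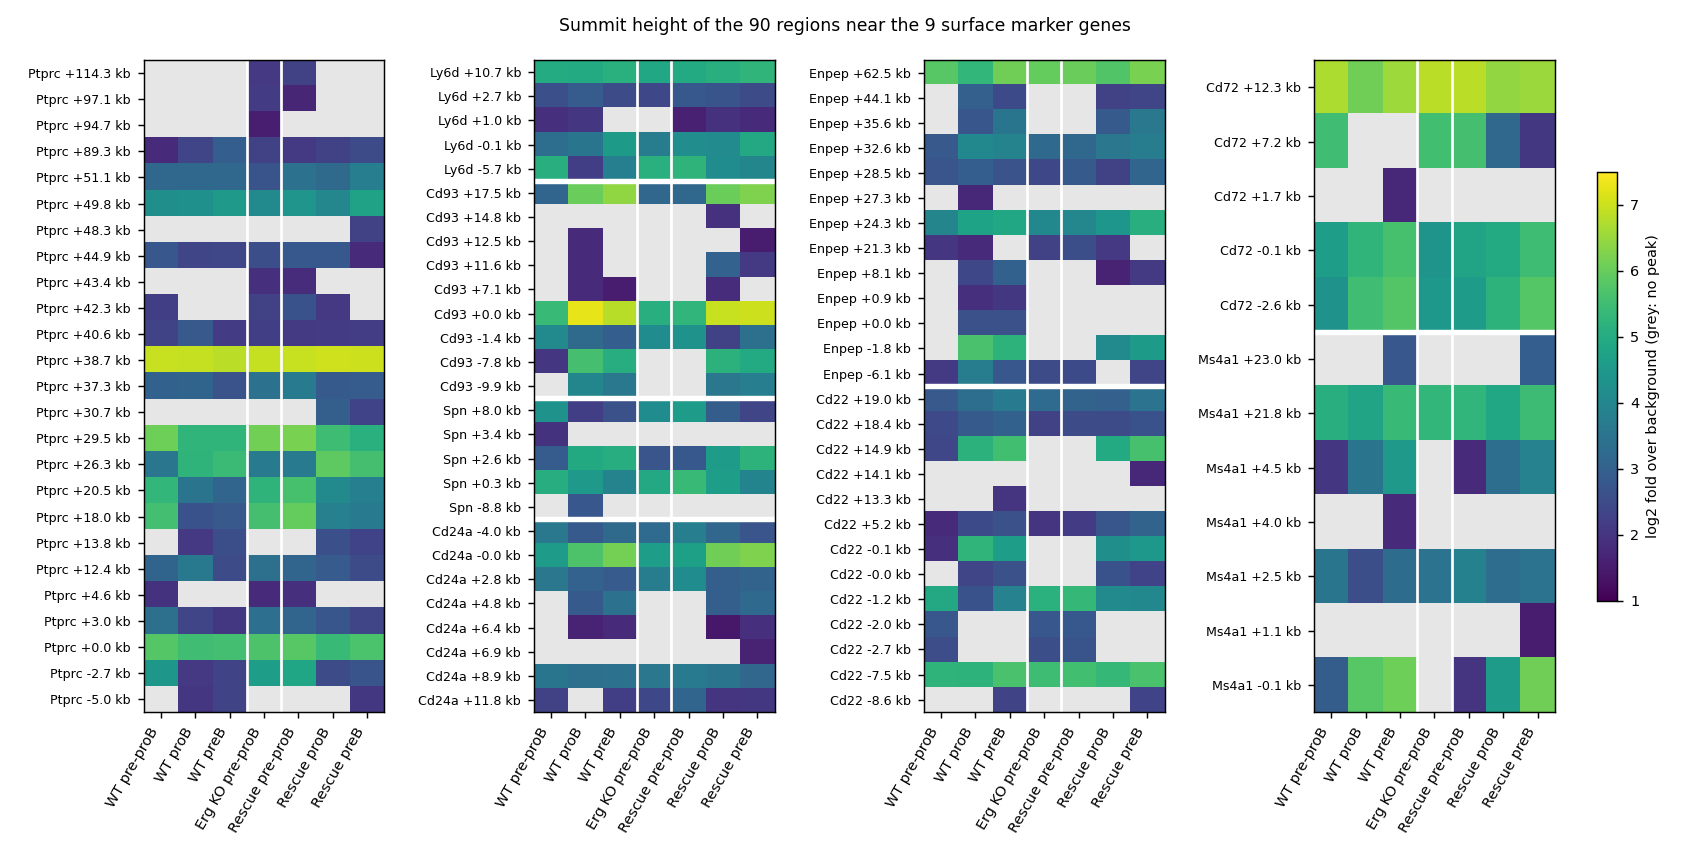
Height of the 90 regions (rows, labelled by gene and distance of the summit from the nearest TSS in kb, positive downstream) in the 7 libraries (columns), coloured by log2 fold over background, with grey for no peak. The Ptprc promoter and the Ptprc region at 38.7 kb are bright in all 7 libraries, whereas the Enpep region at -1.8 kb and the most distant upstream Cd93 region are grey in the 3 pre-proB libraries.

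Of the 90 regions, 43 (47.8%, interval 37.8 to 58.0) had a peak in all 7 libraries, against 32.0% of all regions. Another 9 (10%, 5.35 to 17.9) had a peak in all 4 proB and preB libraries and in no pre-proB library, against 5.19% of all regions, and the reverse held for 3 (3.33%, 1.14 to 9.35), against 11.5%. Enpep gave 4 of the 9 regions of later stages and Cd24a gave 2. WT pre-proB held 58 of the 90 regions and Erg KO and Rescue pre-proB held 55 and 57, while the 4 later libraries held 66 to 71. As shares these were 61.1% to 64.4% and 73.3% to 78.9%, whereas of all 145247 regions the pre-proB libraries held 62.4% to 69.8% and the later ones 49.5% to 60.2%.

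The 3 highest regions that separated the libraries by presence are shown first because the values below turn on them, followed by a lower one, the highest of the 3 regions found in the pre-proB libraries alone. The window is the 200 bp around the highest summit on the plus strand of GRCm38. It is chr3:129334469-129334668 upstream of Enpep and chr2:148451291-148451490 upstream of Cd93. It is chr7:30863433-30863632 downstream of Cd22. The last is upstream of Cd22, at chr7:30882205-30882404. Capitals mark 2 kinds of motif, the E-box CAGCTG or CAGGTG and, in the last window, the ETS site ACAGGAAG, on either strand.
Enpep upstream: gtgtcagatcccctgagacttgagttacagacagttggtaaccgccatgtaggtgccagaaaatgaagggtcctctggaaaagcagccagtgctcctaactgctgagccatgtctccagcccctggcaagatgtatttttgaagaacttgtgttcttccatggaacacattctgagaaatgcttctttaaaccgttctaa
Cd93 upstream: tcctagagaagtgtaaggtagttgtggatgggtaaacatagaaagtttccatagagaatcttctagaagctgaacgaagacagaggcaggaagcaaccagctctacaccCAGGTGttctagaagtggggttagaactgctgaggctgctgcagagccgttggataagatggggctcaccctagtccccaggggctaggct
Cd22 downstream: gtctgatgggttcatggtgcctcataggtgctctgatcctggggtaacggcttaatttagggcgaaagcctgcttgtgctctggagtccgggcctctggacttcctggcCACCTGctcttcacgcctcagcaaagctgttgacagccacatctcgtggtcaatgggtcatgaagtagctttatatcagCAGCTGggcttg
Cd22 upstream: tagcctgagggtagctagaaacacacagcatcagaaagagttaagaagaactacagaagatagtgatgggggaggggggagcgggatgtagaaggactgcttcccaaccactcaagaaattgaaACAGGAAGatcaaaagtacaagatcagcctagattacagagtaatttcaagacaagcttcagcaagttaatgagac

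E-boxes are the sites of E proteins such as E2A, and ETS sites those of factors such as Erg and PU.1. Over the 90 summit windows of 200 bp, an E-box was present in 30 (33.3%), against 35.5% of the windows of all 145247 regions. An ETS octamer (ACAGGAAA, ACAGGAAG, ACCGGAAA or ACCGGAAG) was present in 8 (8.89%, against 10.3%), the PU.1 octamer GAGGAAGT in 9 (10%, against 7.21%), the RUNX heptamer TGTGGTT in 7 (7.78%, against 10.8%), and the EBF1 palindrome, TCCC and GGGA separated by 2 bases, in 1 (1.11%, against 1.54%). The motif lists do not overlap except that ETS and PU.1 octamers share the core GGAA. Each share lay within a few percentage points of that over all regions, and the presence of these letters is no measure of binding.

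Regions are described below for each gene's promoter and, as far as there were any, the 3 highest separating ones. All others were chosen after their values were seen: those of Ptprc at 38677, 30718, 26286, 20531, 18045 and 4959 bp from the nearest TSS, of Spn at 2605 and 8019, of Cd24a at 8916, of Ly6d at 5680 and at Lynx1, of Cd93 at 17542, 11557 and 1363, of Enpep at 44130 and 62499, of Cd22 at 13, 2719 and 7458, of Cd72 at 7160 and at Tesk1, and of Ms4a1 at 4533 and 21787.

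Ptprc encodes the CD45 phosphatase of all leukocytes, and B220 is its form that retains the alternative exons. The promoter region of Ptprc, chr1:138173829-138176336, had folds of 55.4, 45.8 and 47.1 in WT pre-proB, proB and preB, 51.7 for Erg KO pre-proB, and 56.1, 41.4 and 50.1 for the Rescue stages in the same order. Between libraries next to each other in height the interval of the ratio held 1 in every case. The highest region of the gene had folds of 113 to 132. It lay in intron 2 of the transcript with the most exons, 38677 bp downstream of the nearest TSS. The Ptprc promoter was thus open in every stage and genotype, and the step from WT pre-proB to WT proB was a ratio of 0.82 (0.69 to 0.97).

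Within the same intron, other regions went up or down with stage, as values singled out after they were seen. The region 26286 bp downstream of the TSS had folds of 11.8, 37.7 and 43.4 in WT pre-proB, proB and preB, 12.8 for Erg KO pre-proB, and 12.5, 59.7 and 48.1 for the Rescue stages in the same order. The region 20531 bp downstream had 39.7, 11.3 and 8.77 in WT, 37.4 for Erg KO pre-proB, and 49.1, 16.9 and 14.0 for Rescue. Both lay in the same intron and were ordered in opposite ways between pre-proB and later stages in each genotype that had both. At 18045 bp downstream, the folds were 46.7, 6.28 and 7.01 in WT, 47.8 for Erg KO pre-proB, and 62.7, 14.3 and 13 for Rescue. That region spans 2571 bp and the WT proB summit stood 1288 bp from the farthest one of the others, so its WT proB height is not at the same spot. The separating regions of Ptprc were low. In intron 2, 13798 bp downstream of the TSS, peaks were found in the 4 later libraries alone, at 4.25 to 6.01. At 114270 and 97115 bp, peaks were found in Erg KO and Rescue pre-proB alone. Their folds were 4.21 and 4.83 at the first and 4.40 and 3.22 at the second.

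Spn encodes CD43, a sialoglycoprotein of early lymphoid cells. Its promoter region, chr7:127136209-127138378, had folds of 33.0, 22.3 and 15.1 in WT pre-proB, proB and preB, 30.6 for Erg KO pre-proB, and 42.7, 24.7 and 15.3 for the Rescue stages in the same order. The height was lower at each later stage in both series, and WT pre-proB stood 2.13 times above WT preB (1.60 to 2.86). A region in the untranslated part of exon 2, 2605 bp downstream of the TSS, ran the other way, with 7.37, 30.8 and 33.3 in WT, 6.6 for Erg KO pre-proB, and 6.97, 23.8 and 37.1 for Rescue. A region 8019 bp downstream was again highest in the pre-proB libraries, at 18.0 to 24.1, against 4.62 to 7.57 later.

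Cd24a encodes the small glycosylated surface protein CD24. The region over its promoter, chr10:43576901-43581740, had folds of 23.7, 51.9 and 71.0 in WT pre-proB, proB and preB, 25.1 for Erg KO pre-proB, and 25.7, 68.4 and 76.3 for the Rescue stages in the same order. All 4 later libraries lay above all 3 pre-proB libraries, and WT proB was 2.18 times WT pre-proB (1.75 to 2.72). Downstream of the gene, 2 lower regions at 4797 and 6390 bp from the TSS had peaks in the 4 later libraries, with folds of 7.20 to 11 and 2.67 to 3.71, and in no pre-proB library. Another Cd24a region, at 8916 bp, kept a fold of 8.87 to 13 in all 7 libraries.

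Ly6d encodes a GPI-anchored protein used to split common lymphoid progenitors. Its promoter region, chr15:74763383-74764112, had folds of 10.3, 11.4 and 23.2 in WT pre-proB, proB and preB, 13.4 for Erg KO pre-proB, and 18.0, 17.6 and 30.1 for the Rescue stages in the same order. The 2 preB libraries were the highest, and WT preB was 2.13 times WT proB (1.54 to 2.98). An upstream region 5680 bp from the TSS, named after its values were seen, had 33.5, 4.62 and 14.0 in WT, 34.8 for Erg KO pre-proB, and 37.7, 18.0 and 15.7 for Rescue. There the 3 pre-proB libraries were highest and WT proB was the lowest of the 7, at 0.131 times WT pre-proB (0.0819 to 0.202). A region near the end of the window overlaps the TSS of Lynx1 and was even across libraries, at 29.3 to 38.4.

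Cd93 encodes a C-type lectin-like receptor that marks immature B cells. Its promoter region, chr2:148439668-148444038, had folds of 41.3, 153 and 112 in WT pre-proB, proB and preB, 33.7 for Erg KO pre-proB, and 39.0, 124 and 130 for the Rescue stages in the same order. The 4 later libraries exceeded the 3 pre-proB libraries, with WT proB at 3.67 times WT pre-proB (3.15 to 4.29). Distal regions on both sides of Cd93 shared that order. The region 17542 bp downstream of the TSS had 8.72, 65.0 and 85.5 in WT, 8.80 for Erg KO pre-proB, and 8.94, 66.2 and 76.1 for Rescue. Upstream, 7828 bp from the TSS, folds were 4.07, 48.2 and 33.3 in WT, absent in Erg KO and Rescue pre-proB, and 36.1 and 31.4 in Rescue proB and preB. The region 9913 bp upstream had 15.7 and 12.1 in WT proB and preB and 12 and 13.8 in Rescue proB and preB, with no peak in the 3 pre-proB libraries. Against these, the region 1363 bp upstream was higher in the pre-proB libraries, at 17.1 to 20.2, than in the later ones, at 4.90 to 10.5, although its summits lay up to 530 bp apart.

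Enpep encodes BP-1, an aminopeptidase that cleaves angiotensin and appears on proB and preB cells. It had 6 regions in each pre-proB library, 13 in WT proB, 11 in WT preB and 9 in each of Rescue proB and Rescue preB. Peaks covered 3247 bp of its window in WT pre-proB and 7534 bp in WT proB. The highest separating region, 1849 bp upstream of the TSS at chr3:129334061-129335360, had folds of 49.5 and 36.8 in WT proB and preB and of 16.9 and 23.3 in Rescue proB and preB, with no peak in any pre-proB library. The WT proB pileup was at least 20.9 times that of WT pre-proB (11.8 to 41.1, with WT pre-proB set to the lowest pileup called there). Over the TSS itself the peak was low, 6.09 in WT proB and 6.14 in WT preB, and no other library had one. Inside the gene, peaks of introns 11, 10 and 1 at 44130, 35561 and 8095 bp from the TSS were also found in all 4 later libraries and in no pre-proB library, with folds between 3.12 and 12.2. The far end of Enpep was open throughout, with 39.7 to 73.4 in exon 20.

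**Figure D2:**
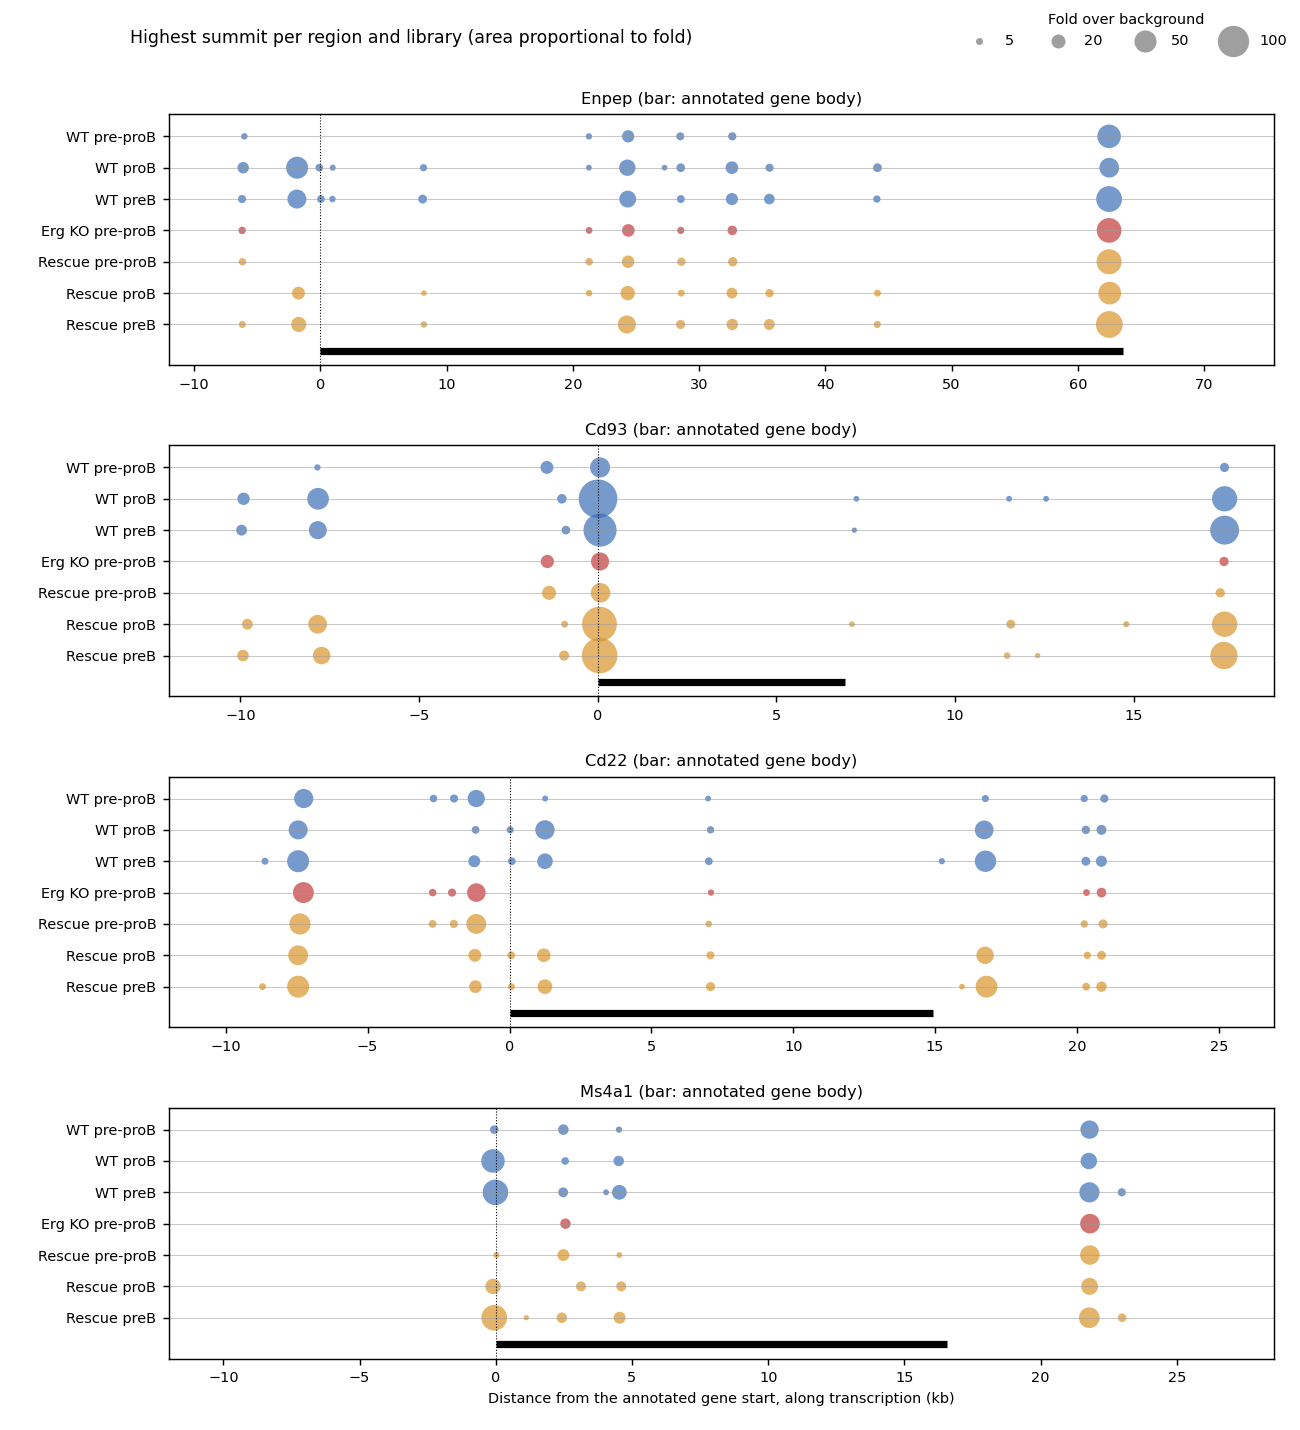
Position of the highest summit of each region (x axis, kb from the annotated gene start along transcription) in each library (rows) at Enpep, Cd93, Cd22 and Ms4a1, with the area of a point proportional to fold and the bar marking the gene body. The large point just upstream of Enpep is present in the 4 proB and preB rows and missing from the 3 pre-proB rows, and the point at the Ms4a1 start is missing from the Erg KO pre-proB row.

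Cd22 encodes a sialic acid-binding lectin that dampens signalling of the B-cell receptor, and it has 5 annotated TSSs. Among the regions touching its promoter windows, the highest, chr7:30881126-30881828, had its summit 1178 bp upstream of the nearest TSS. Its folds were 30.4, 6.28 and 14.7 in WT pre-proB, proB and preB, 35.4 for Erg KO pre-proB, and 40.4, 17.2 and 16.5 for the Rescue stages in the same order. The 3 pre-proB libraries were the highest, and WT pre-proB was 5.02 times WT proB (3.43 to 7.55). At 1971 and 2719 bp upstream, 2 further regions had peaks in the 3 pre-proB libraries, with folds of 6.78 to 6.97 and 5.82 to 6.43, and in no later library.

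The reverse was seen 65 bp upstream of an inner TSS of Cd22, in intron 3 of its transcript with the most exons. That region had folds of 3.68, 38.4 and 25 in WT pre-proB, proB and preB, no peak in Erg KO or Rescue pre-proB, and 18.9 and 22.1 in Rescue proB and preB. Downstream of the gene, 14916 bp from the nearest TSS at chr7:30862895-30864151, the folds were 5.23, 36.0 and 46.7 in WT, with no peak in Erg KO or Rescue pre-proB, and 31.2 and 48.5 in Rescue proB and preB. At both regions WT proB exceeded WT pre-proB, by 10.8 times (6.68 to 18.6) at the inner TSS and by 7.03 times (4.65 to 11) downstream. A lower region in exon 1, with its summit 13 bp upstream of another TSS, had peaks in the 4 later libraries alone. Its folds were 5.17 and 6.14 in WT proB and preB and 6.24 and 4.95 in Rescue proB and preB. A region 7458 bp upstream stayed at 37.1 to 49.5 in all 7 libraries.

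Cd72 encodes another inhibitory co-receptor of the B-cell receptor. Its promoter region, chr4:43453241-43455181, had folds of 25, 37.8 and 48.7 in WT pre-proB, proB and preB, 20.5 for Erg KO pre-proB, and 27.7, 31.2 and 44.8 for the Rescue stages in the same order. The order followed stage in both series. With all 7 libraries ranked by height, the interval of the ratio between neighbours held 1 in every case. Steps within a series can pass over such neighbours, and WT preB was above WT proB by an interval above 1. At the 3' end of the gene, 7160 bp from the nearest TSS and named after its values were seen, the WT, Erg KO and Rescue pre-proB libraries had folds of 45.2, 46.2 and 47.5, and Rescue proB and preB had 9.13 and 4.13. WT proB and WT preB had no peak there, and WT pre-proB was at least 20.5 times WT proB (11.5 to 40.3). The tallest region in the Cd72 window, at 68.1 to 114, also covers the TSS of Tesk1.

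Ms4a1 encodes CD20, a membrane protein of B cells from the preB stage onwards. Its promoter region, chr19:11265767-11267399, had folds of 7.56, 56.5 and 66.6 in WT pre-proB, proB and preB, none for Erg KO pre-proB, and 3.93, 24.3 and 67.7 for Rescue pre-proB, proB and preB. Its height was lowest in the 3 pre-proB libraries, and WT preB was 9.31 times WT pre-proB (6.63 to 13.4). Rescue proB stood between the stages, 2.23 times below WT proB (1.79 to 2.81), whereas Rescue preB and WT preB had a ratio of 0.999 (0.852 to 1.17). A region in intron 1, 4533 bp from the TSS, followed with 4.07, 11.3 and 22.4 in WT, none for Erg KO pre-proB, and 3.40, 10.2 and 14.6 for Rescue. The region 21787 bp from the TSS, downstream of the gene, was open in all 7 libraries at 27.7 to 43.9.

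**Figure D3:**
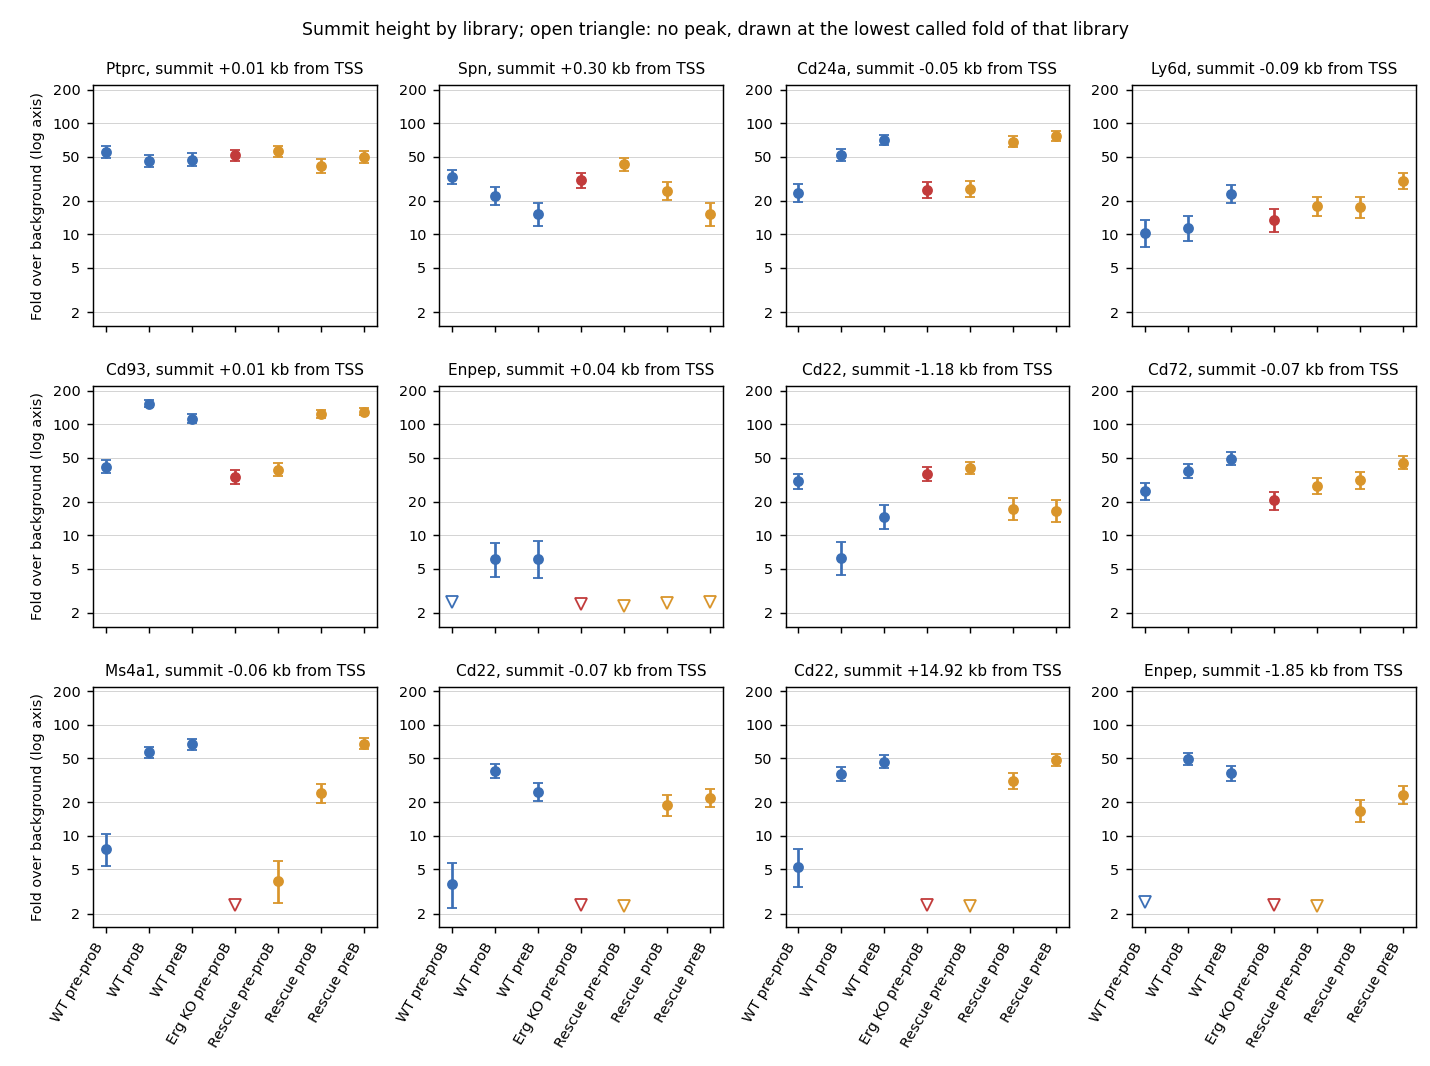
Fold over background (log axis) of 12 regions in the 7 libraries, WT in blue, Erg KO in red and Rescue in orange, with exact Poisson 95% intervals of the summit pileup and open triangles where a library had no peak, drawn at its lowest called fold. Ptprc stays within 41.4 to 56.1, Spn descends and Cd24a climbs with stage, and the Ms4a1 and Cd22 regions in the bottom row have triangles in Erg KO pre-proB.

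Between WT pre-proB and WT proB, the 9 genes gained more regions than they lost. Of 68 regions with a peak in WT proB, 17 (25%, 16.2 to 36.4) had none in WT pre-proB, against 31.9% of all regions. Enpep gave 7 of them and Cd93 gave 4, Ptprc and Cd24a 2 each, and Spn and Cd22 1 each. In the other direction, 7 of 58 regions of WT pre-proB (12.1%, 5.97 to 22.9) had no peak in WT proB, against 34.4% of all regions. The share over all regions lay above the interval of the marker genes for lost peaks and within it for gained ones. With lists cut to 38232 peaks, the lost share was 36.0% (9 of 25) and the gained share 50% (16 of 32). The share over all regions at that setting is not given here, so the contrast is not shown to hold there.

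By height, 22 of 75 regions with a peak in either library (29.3%, 20.2 to 40.4) were at least 2 times higher in WT proB, against 17.5% of all regions. Enpep gave 7, Cd93 4, Cd22 3, Spn, Cd24a and Ms4a1 2 each, and Ptprc and Cd72 1 each. The 11 regions at least 2 times higher in WT pre-proB (14.7%, 8.39 to 24.4, against 25.4% of all regions) came from Ptprc with 4, Cd22 with 3, and Ly6d, Spn, Cd24a and Cd72 with 1 each. Over the 51 regions with a peak in both, the median log2 ratio was 0.06, with a range of -2.90 to 3.57, and the median over all such regions was -0.07.

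Markers of some other blood cells moved along with this stage step. The summed promoter fold of 6 plasmacytoid dendritic cell genes was 360 to 396 in the 3 pre-proB libraries and 180 to 302 in the 4 later ones. Of these genes, Siglech (101 to 113 and 18.6 to 54.5), Bst2 (81.0 to 92.4 and 33.2 to 35.1) and Irf8 (59.7 to 69.0 and 28.1 to 38.4) were higher in every pre-proB library, and Itgax had later a single peak of 5.12. Tcf4 went the other way, at 59.2 to 62.4 and 62.8 to 144, and Ccr9 overlapped, at 24.6 to 29.5 and 20.3 to 33.8. For 6 myeloid genes the sum was 45.3 to 53.3 and 19.1 to 36.3, with Itgam higher in the pre-proB libraries (25.7 to 29.8 and 4.06 to 8.69) and Csf1r lower (7.37 to 8.94 and 12.9 to 22.5). The sums of 6 T-cell genes (31.4 to 50.9 and 8.55 to 33.4), of 6 NK and innate lymphoid genes (192 to 230 and 197 to 254) and of 6 erythroid genes (127 to 147 and 123 to 150) overlapped. Within the NK list, Klrb1c was 35.2 to 49.7 in the pre-proB libraries and 5.26 to 8.31 in the later ones, Il2rb had peaks in the 3 pre-proB libraries alone (5.23 to 7.15), and Gata3 ran the other way (51.6 to 63.9 and 80.1 to 110). No promoter peak was found in any library at Cd3e, Cd3d, Ncr1, Elane, Gata1 and Hba-a1, but other genes of the same lists had one. In the T-cell list, Cd8a had 19.2 to 30.2 in the pre-proB libraries and later 6.90 in Rescue proB alone. Lck had 8.55 to 22.9 over the 7 libraries, and Cd4 and Bcl11b had 3.14 to 7.38 in WT proB and the Erg-deficient pre-proB libraries. Mpo had 4.07 in WT and 3.40 in Rescue pre-proB, and Klf1 had 34.9 to 49.7 in all 7. Whether other cells in the pre-proB gate contributed to the regions higher there was not tested, and in bulk libraries fewer cells with an open region and less opening per cell cannot be told apart.

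From WT proB to WT preB the marker genes changed less. No peak was found in WT preB at 6 of 68 regions of WT proB (8.82%, 4.11 to 17.9, against 26.5% of all regions), and the same count of 6 of 68 was without a peak in WT proB, against 10.6%. The first 6 lay at Cd93 and Enpep with 2 each and at Ly6d and Spn with 1 each, with a median fold of 3.51. The second 6 lay at Cd22 and Ms4a1 with 2 each and at Cd24a and Cd72 with 1 each. Over 62 shared regions the median log2 ratio of WT preB to WT proB was 0.16, between -1.12 and 1.60, beside 0.05 over all regions. At the promoters, Ly6d, Cd24a, Cd72 and Ms4a1 were higher in WT preB by intervals above 1, and Cd93 and Spn were lower. The Cd22 regions split, as WT preB was 2.48 times WT proB at 1178 bp upstream (1.61 to 3.89) and 0.677 times WT proB at the inner TSS (0.533 to 0.855).

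The question of the Erg KO library is whether the chromatin of B-lineage genes differs when Erg is missing. At most marker genes the heights of the 2 libraries were close. Over 51 regions with a peak in both, the log2 ratio of Erg KO to WT pre-proB had a median of 0.03 and lay between -0.51 and 0.48, and the median over all shared regions was 0.06. None of 62 regions was at least 2 times higher in Erg KO pre-proB (0 of 62 allows up to 5.83% by the Wilson interval, against 1.25% of all regions), and 2 (3.23%, 0.889 to 11, against 1.43%) were at least 2 times higher in WT pre-proB. Those 2 were the Ms4a1 promoter and the region downstream of Cd22.

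By presence, 7 of 58 regions of WT pre-proB (12.1%, 5.97 to 22.9) had no peak in Erg KO pre-proB, against 6.38% of all regions, which lies within the interval. The share was 3.92% (2 of 51) when peaks had to cover 50% of a region and 4.0% (1 of 25) with lists cut to 38232 peaks. The share over all regions at these 2 settings is not given here, so neither value can be set against 6.38%. Cd22 and Ms4a1 had 2 each and Cd93, Spn and Ly6d had 1 each. These were low peaks, at folds of 3.68 to 7.56 in WT pre-proB. Of the 7, 6 (85.7%, 48.7 to 97.4) had a peak in WT proB, against 59.0% of all regions of this kind. In the other direction, 4 of 55 regions of Erg KO pre-proB (7.27%, 2.86 to 17.3, against 13.2%) had none in WT pre-proB, and all 4 lay at Ptprc, with folds of 2.93 to 4.40.

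Because the WT peaks were low, the missing Erg KO peak bounded the difference weakly. Setting Erg KO to its lowest called pileup, WT pre-proB was at least 3.39 times Erg KO at the Ms4a1 promoter (1.74 to 7.13) and at least 2.32 times at the downstream Cd22 region (1.13 to 5.05). At the inner Cd22 TSS the bound was 1.61 (0.733 to 3.66), and at the upstream Cd93 region 1.79 (0.832 to 4.01), and both intervals held 1. The Cd22 and Cd93 regions belong to those that were 7.03 to 12.2 times higher in WT proB than in WT pre-proB.

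Rescue pre-proB, the other Erg-deficient library of that stage, shares the WT pre-proB library as its comparator. No peak was found there at 4 of 58 regions of WT pre-proB (6.90%, 2.71 to 16.4, against 5.39%), which were the same 2 Cd22 regions, the Cd93 region at 7828 bp and a Spn region in exon 2 whose fold was 3.88. These 4 regions (4.44% of 90, 1.74 to 10.9) lacked a peak in both Erg-deficient pre-proB libraries, against 2.36% of all regions. The Ms4a1 promoter kept a peak of 3.93 in Rescue pre-proB, 2.0 times below WT pre-proB (1.14 to 3.59). The reverse, a peak in both Erg-deficient pre-proB libraries and none in WT pre-proB, was found at 3 regions (3.33%, 1.14 to 9.35, against 5.65%), all at Ptprc, and these were also the 3 of 57 regions of Rescue pre-proB without a WT peak (5.26%, 1.81 to 14.4, against 15.4%).

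Promoters of some B-lineage genes moved with these values. Of 7 such genes (Cd79a, Cd79b, Pax5, Ebf1, Vpreb1, Igll1 and Rag1), all 7 showed a promoter peak in the WT library of the pre-proB stage, 4 in the Erg KO and 5 in the Rescue library, with summed folds of 111, 84.5 and 92.9, and all 7 had one in each later library. Vpreb1, part of the surrogate light chain, had 8.53 in WT pre-proB and no peak in the other 2, and Pax5, the commitment factor, had 3.68 and no peak. Cd79a, a signalling chain of the B-cell receptor, had 11.4 in WT, none in Erg KO and 3.57 in Rescue pre-proB, against 80.1 in WT proB. Ebf1 and Rag1 did not share that order, with 21.5, 24.4 and 23.6 for Ebf1 and 32.2, 32.6 and 36.3 for Rag1 in the WT, Erg KO and Rescue pre-proB libraries. The part of B-lineage promoters in the Cd22, Cd93 and Ms4a1 values was not tested, and a smaller share of advanced cells in the Erg-deficient sorts and less opening per cell cannot be told apart.

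**Figure D4:**
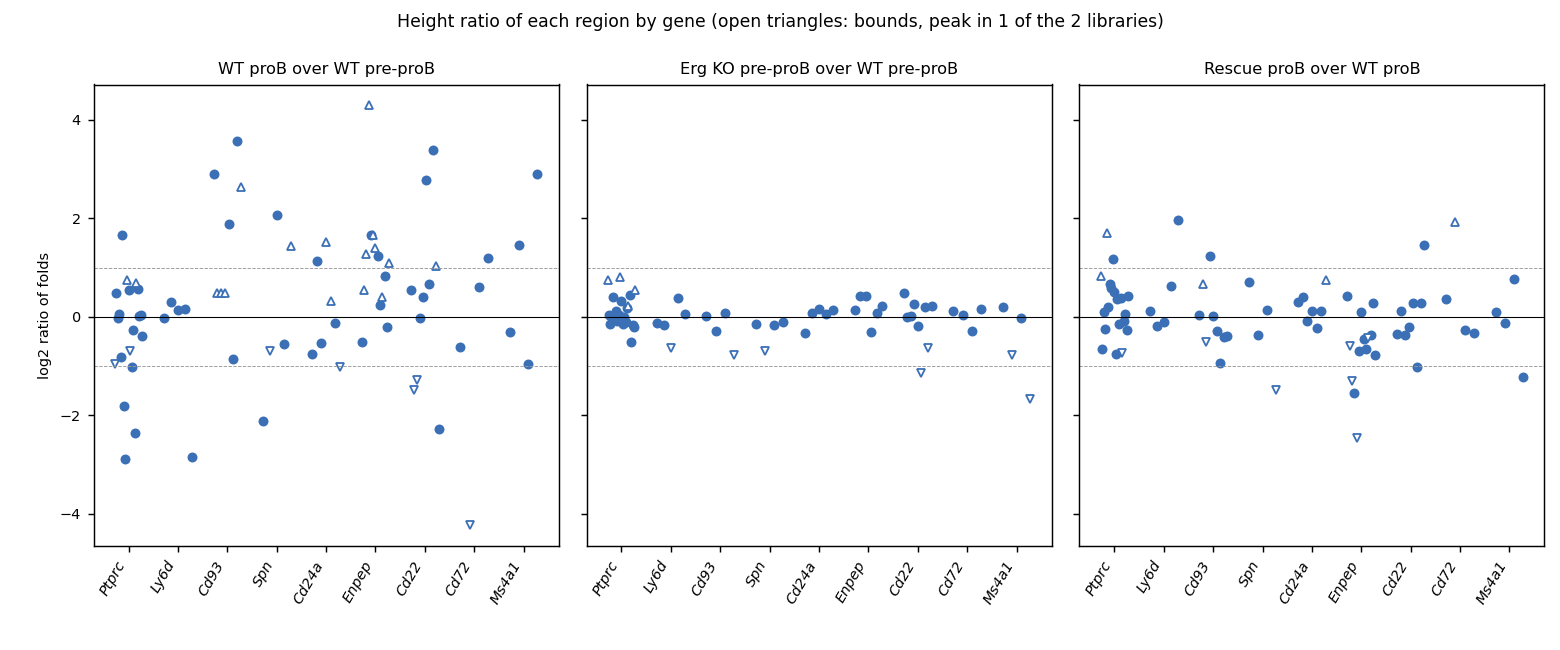
log2 ratio of folds (y axis) for each region of the 9 genes (x axis) in 3 pairs of libraries, with filled circles where both libraries had a peak, open triangles for bounds where 1 had none, and dashed lines at a 2-fold difference. The stage step spreads from below -4 to above 4, whereas the Erg KO to WT points lie between -0.51 and 0.48 apart from the triangles.

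Rescue proB and WT proB differed in few regions of the marker genes. Of 68 regions of WT proB, 7 (10.3%, 5.08 to 19.8, against 20.8%) had no peak in Rescue proB, 4 of them at Enpep, and of 66 regions of Rescue proB, 5 (7.58%, 3.28 to 16.5, against 19.4%) had none in WT proB. Of the 17 regions gained from WT pre-proB to WT proB, 11 (64.7%, 41.3 to 82.7, against 48.2%) were present in Rescue proB and 12 (70.6%, 46.9 to 86.7, against 49.7%) in Rescue preB. Of the 7 lost, 6 (85.7%, 48.7 to 97.4) were present in each Erg-deficient pre-proB library, against 92.4% of such regions in Erg KO and 94.0% in Rescue pre-proB, and 3 (42.9%, 15.8 to 75, against 33.8%) in Rescue proB.

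In height, 6 of 73 regions were at least 2 times higher in WT proB than in Rescue proB (8.22%, 3.82 to 16.8, against 10.1%) and 6 were at least 2 times higher in Rescue proB (8.22%, against 9.84%). The first 6 were at Enpep with 3 and at Spn, Cd22 and Ms4a1 with 1 each. The second were at Ptprc with 2 and at Ly6d, Cd93, Cd22 and Cd72 with 1 each. At the Enpep upstream region WT proB was 2.81 times Rescue proB (2.17 to 3.68), at the inner Cd22 TSS 1.95 times (1.5 to 2.54) and at the Ms4a1 promoter 2.23 times. Rescue proB was 4.22 times WT proB at the upstream Ly6d region (2.65 to 6.96) and 2.91 times at the Cd22 region 1178 bp upstream (1.91 to 4.53).

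Whether Rescue proB lay toward the pre-proB side was described over regions chosen by the ratio of WT pre-proB to WT preB. A peak in WT proB or Rescue proB was also required, so the proB libraries took part in the choice. The Cd72 region at 7160 bp entered through its Rescue proB peak of 9.13, with no WT proB peak, which fixed its direction. The Enpep promoter region and the Ptprc region 4959 bp upstream entered the set higher in WT preB. Both did so through WT proB peaks, of 6.09 and 4.06. Neither had a Rescue proB peak, so both could only count as lower there. Of 10 marker regions at least 2 times higher in WT pre-proB than in WT preB, 9 (90%, 59.6 to 98.2, against 76.7% of all such regions) were higher in Rescue proB than in WT proB, with a median log2 ratio of 0.65, beside 0.66 over all. Of 24 marker regions at least 2 times higher in WT preB, 16 (66.7%, 46.7 to 82.0, against 62.9%) were lower in Rescue proB, with a median of -0.31, beside -0.20. In both cases the share over all regions lay within the interval of the marker genes. Not all of the differing regions fell in these sets, since the Ptprc region at 30718 bp and the Cd93 region at 11557 bp were higher in Rescue proB with no peak in any pre-proB library. Marker sums differed as well: the summed plasmacytoid dendritic fold was 213 in Rescue proB and 180 in WT proB, with Siglech at 48.1 and 18.6, Tcf4 at 62.8 and 79.9 and Bst2 at 33.4 and 33.2, the myeloid sum was 36.3 and 24.4, the T-cell sum 22.9 and 33.4, and the B-lineage sum 357 and 449.9. Their part was not tested.

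At the preB stage, 6 of 68 regions of WT preB had no peak in Rescue preB (8.82%, 4.11 to 17.9, against 7.87%), and 9 of 71 regions of Rescue preB had none in WT preB (12.7%, 6.81 to 22.4, against 17.3%). The 9 were spread over 7 of the genes with no more than 2 each. Over 62 shared regions the median log2 ratio was 0.04, between -0.90 and 0.89, beside 0.10 over all regions. The promoters of Ptprc, Spn, Cd24a, Cd22, Cd72 and Ms4a1 had ratios of 0.905 to 1.11 whose intervals held 1, that of Ly6d was 1.28 (0.988 to 1.66), and that of Cd93 was 1.14 (1.01 to 1.28). The Enpep promoter had a peak in WT preB and none in Rescue preB, a ratio of at most 0.377 (0.169 to 0.786), and the Enpep upstream region was 1.61 times higher in WT preB (1.26 to 2.06).

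**Figure D5:**
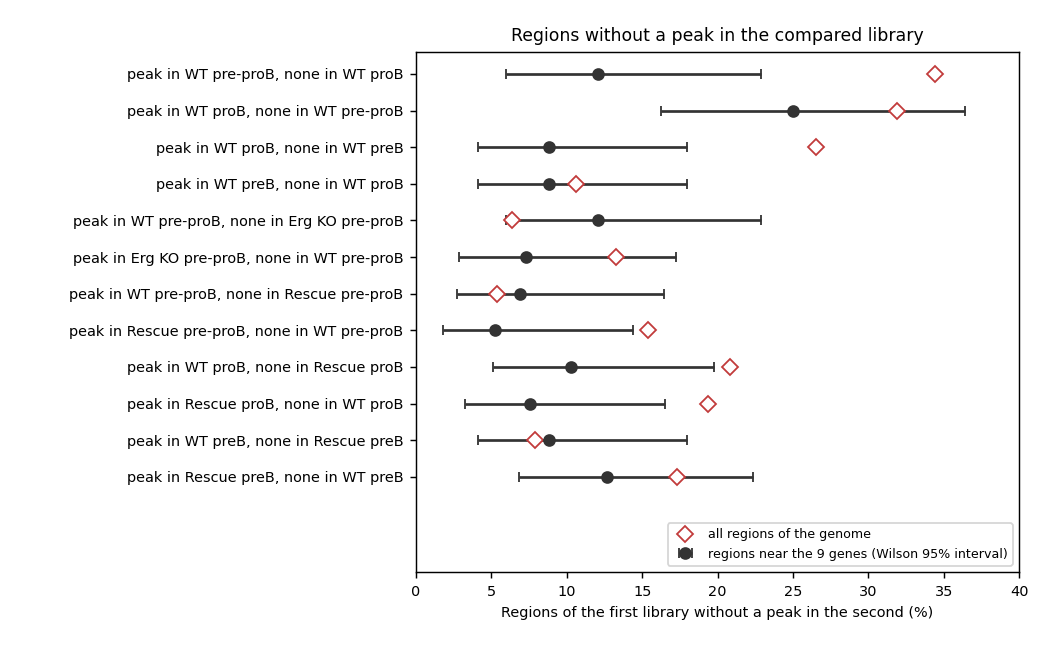
Percentage of regions of the first library that had no peak in the second, for the 12 ordered pairs of libraries, with filled points and Wilson 95% intervals for the 90 regions of the marker genes and open diamonds for all regions. The points of the 9 genes range from 5.26% to 25%, and 5 diamonds lie right of their intervals, those at 34.4%, 26.5%, 15.4%, 20.8% and 19.4%.

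The surface genes of the study's other gates and antibodies gave 8 or 9 of 11 promoters with a peak in each library. Cr2, which encodes the complement receptor CD21, was higher in the later libraries, at 39.5, 122 and 136 in WT, 38.5 for Erg KO pre-proB, and 42.4, 109 and 147 for Rescue. Il2ra (CD25, a preB marker) had 9.30, 37.5 and 30.7 in WT, 11.2 for Erg KO pre-proB, and 10.9, 31.4 and 31.8 for Rescue. Kit, the stem cell factor receptor, was highest in WT proB at 46.7 and lay between 14.2 and 26.2 in the other 6. Il7r, the interleukin-7 receptor on which these cells depend, was open throughout at 27.3 to 51.9, and Fcer2a (CD23, of mature B cells) had no promoter peak in any library.

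By Pearson correlation of log2 promoter fold over the 7 libraries, among about 13169 coding genes with a promoter fold of at least 10 in some library, the genes most like Ms4a1 were Xrcc6 and Hes5 (r = 0.994 each) and those most like Cd93 were Ralb and Cfap58 (r = 0.997 and 0.996). The other pairs were Ess2 and Bnip3l for Ptprc (0.992 and 0.985), Pgm3 and Rwdd2a for Ly6d (0.999 each), Pdgfrl and Kmt2a for Spn (0.989 each), Fmn2 and Tmem108 for Cd24a (0.998 each), Acy3 and Scarb1 for Enpep (0.986 and 0.967), Stn1 and Tspan2 for Cd22 (0.985 and 0.975) and Ulk1 and Rrm2b for Cd72 (0.992 each). These are descriptions over 7 points that share their libraries: r exceeded 0.95 for 1328 genes with Cd24a, 602 with Cd93 and 538 with Ms4a1, but for 7 with Cd22 and 4 with Enpep. Enpep itself had a promoter peak in only 2 of the 7 libraries, at 6.09 and 6.14, below the minimum of 10. Its r thus rests mostly on libraries without a peak.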

How the data were processed

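Per the labels and the study's methods, nuclei of sorted bone marrow B-cell progenitors were profiled by paired-end ATAC-seq, aligned to mm10 with Bowtie2, and peaks called per library with MACS2, with no pooling. CASAVA 1.8.2 and Picard are named in the submitters' processing notes, with other versions, duplicate handling, read shift and controls not given in the sources used here. Methods name sonication and the labels name Tn5. The authors deposited 10-column peak lists: the fold is a ratio of summit to background pileup, the p and q of the summit were deposited as −log10 values, and the score deposited by the authors is 10 times −log10 q cut to a whole number.

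Overlapping peaks (1 bp) of the 7 lists were merged, genes and TSSs came from GENCODE M21 basic, and sequences from RefSeq's GRCm38.p6. The fold steps gave whole summit pileups for 100% of peaks within 0.02 of a step, with a pseudocount of 1. Read totals are not in the lists, so depth is known only as the background pileup. If mates were counted separately, intervals are too narrow, and a summit is a maximum. Python 3.11.15, pandas 2.3.3, numpy 2.4.6 and scipy 1.17.1 were used, and scripts were tested on simulated data. Regions named were, per gene, the highest over the promoter window (1000 bp each side) and up to 3 highest that separate libraries, with others said to be chosen after their values were seen. The genes and lists were chosen with earlier results of these data known. Alternatives are given at the end. One marker gene of the lists is not reported here, and the list counts leave it out.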

Additional observations from a re-analysis of the deposited data

Results flagged for a closer look

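The region 1849 bp upstream of Enpep changed in opposite directions from proB to preB in the 2 series, with a log2 change in fold of -0.43 in WT (49.5 to 36.8) and of 0.46 in Rescue (16.9 to 23.3), a difference of 0.89. Each value is from 1 library, and the difference was not tested. By the pileup ratio the WT change was 0.775 (interval 0.635 to 0.944) and the Rescue change 1.35 (1.002 to 1.84).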

How the results depend on the processing

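Of 128 recomputed values, 116 stayed within their interval or 1.5 times their count, 12 moved and none reversed. Most were shares or counts, which carry no sign, so only the height ratios could change sign. With each list cut to its top 38232 peaks, the share of WT pre-proB regions without a WT proB peak became 36.0% and the reverse 50%, WT preB without WT proB 18.9%, WT pre-proB without Erg KO 4.0%, WT pre-proB without Rescue pre-proB 0%, and Rescue preB without WT preB 5.56%. With lists of equal length, WT proB without WT preB became 3.28% and Rescue preB without WT preB 6.15%. When peaks had to cover 50% of a region, WT pre-proB without Erg KO became 3.92% and without Rescue pre-proB 1.96%. With Rescue stages read from the source names, Rescue pre-proB without WT pre-proB became 26.8% and WT proB without Rescue proB 29.4%. The causes were not tested, except that shorter lists hold fewer regions by construction. Shares over all regions at these settings are not given here. The values therefore show movement of the marker genes alone and cannot be set against the shares over all regions above. Flanks of 0 or 25 kb, leaving out regions at the TSSs of other genes (added after seeing the data), promoter windows of 500 or 2500 bp and both rescalings of height moved none.

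No paired analysis was possible because each group had 1 library, and no replicate could be left out. Low regions near the lowest called pileup of 10 to 12 depend most on the peak threshold. Merged regions can hold several summits, and 7 of the 90 had summits more than 300 bp apart.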

Other observations

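The 3 regions here were chosen after their values were seen. In intron 2 of Ptprc, 30718 bp downstream of the nearest TSS, a region had folds of 7.80 and 4.95 in the Rescue proB and preB libraries and no peak in the other 5 libraries. Downstream of Ms4a1, 22994 bp from the TSS, folds of 6.79 in WT preB and 7.63 in Rescue preB were found, with no peak in the other 5. A region 8626 bp upstream of Cd22 likewise had peaks in the 2 preB libraries alone, at 5.04 in WT and 4.95 in Rescue.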
